A study of Mus musculus with 12 samples.

Results

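The cell cycle genes and inhibitors are a module of 36 mouse genes that drive or brake cell division, and they were followed here through open chromatin in embryoid bodies with and without Foxk1. A peak summit, the point of highest signal in a peak, was counted for a member when the nearest end of any protein-coding gene lay within 100 kb and belonged to that member. By this rule 742 of the 386209 summits in 12 libraries were assigned to the 36 members, out of 21631 protein-coding genes. The 7 cyclin-dependent kinase inhibitors (Cdkn genes) held 190 of these summits, and the 17 cyclins, kinases and E2f factors held 402. The other 12 members were 3 pocket proteins, 3 Cdc25 phosphatases and 6 genes of mitosis and replication.

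Embryoid bodies, aggregates of differentiating stem cells, were grown in mesodermal medium from mouse embryonic stem cells, either Foxk1 knockout (KO) or iHA-Foxk1, and all 12 libraries carry the label NoDox. ATAC-seq, in which the Tn5 transposase inserts adapters into accessible DNA, gave 2 libraries for each of 6 groups: KO at days 3, 5 and 10, iHA-Foxk1 at days 3 and 5, and a group at day 10 named Control, whose line is not given in the sources used here. Below, iHA-Foxk1 and Control are each called the control of their day. Stem cells were kept on irradiated fibroblasts, and these feeders were removed by a plating step. The labels name no separate clones and do not say whether libraries of a group came from separate cultures, so every p-value measures the spread between these libraries. In bulk chromatin, fewer cells with an open site and less opening per cell cannot be told apart.

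Day 3 lists held 53456 to 59006 summits, day 5 lists 14519 to 48391 and day 10 lists 4028 to 10548, and the read depth behind them is unknown. The shortest list of days 3 and 5 was iHA-Foxk1 day 5 replicate 1. Peak names inside the KO lists of day 5 hold the tag D7, so a difference in day cannot be told apart from genotype there, and day 10 cannot be told apart from a change in peak naming and score minimum. Foxk1 itself, counted within 1 kb of the gene, held 3 to 6 summits in the KO libraries of days 3 and 5 and 2 to 6 in the control, which does not test the knockout because the deleted part is not given in the sources used here. Of markers, counted at gene ends or listed start sites, 6 of 6 pluripotency genes were open in every day 3 library, as were 5 or 6 of 6 of the primitive streak and nascent mesoderm and 5 of 6 of fibroblasts (feeders). In day 5 lists shortened to 1 length, pluripotency markers were open at 3 and 3 genes in the KO against 1 and 3 in the control, streak markers at 0 and 0 against 1 and 2, and fibroblast markers at 0 and 1 against 3 and 1. Cardiac markers were open at 1 and 1 of 7 genes against 2 and 2 there, and at 3 in every day 3 library. In the full day 5 lists streak markers were open at 6 and 6 genes against 1 and 6, so their order turned. Full lists gave 6 and 6 against 1 and 4 for pluripotency markers and 4 and 5 against 3 and 5 for fibroblast markers. For cardiac markers they gave 3 and 3 against 2 and 4. At day 10 at most 1 of 7 cardiac markers was open in any list. Their part in the results was not tested.

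Cells divide when cyclins bind and activate cyclin-dependent kinases, which phosphorylate the pocket proteins Rb1, Rbl1 and Rbl2 and so release E2f factors to transcribe genes of DNA replication. The INK4 inhibitors (Cdkn2a to Cdkn2d) bind Cdk4 and Cdk6, while the CIP/KIP inhibitors (Cdkn1a to Cdkn1c) act on a wider range of cyclin and kinase complexes. Mouse embryonic stem cells divide fast with a short first gap phase, and inhibitors are known to gain importance as cells differentiate. Foxk1 is a forkhead transcription factor known from muscle progenitors, where it has been linked to repression of Cdkn1a.

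RefSeq promoters (GRCm38.p6, the assembly of mm10) were matched for 27 of the 36 members, with 33 listed start sites. Missing entries are Cdkn1c, Ccnd2, Ccne2, Ccna2, E2f4, E2f5, Rb1, Cdc25c and Aurkb. Printed below are the 250 bases before the start site, 5′ to 3′ on the gene's strand, of 8 members: Cdkn2c, the inhibitor whose own gene end differed between genotypes at day 10, and then, from each other class, the listed gene that was open in most libraries, with ties settled by the higher median percentile. Capitals mark matches on either strand to a CCAAT box (CCAAT), a GC box (GGGCGG), an E2F site (TTTCCCGC, TTTGGCGC, TTTCGCGC or TTTGCCGC), a CHR element (TTTGAA) or a forkhead site (TGTTTAC).
Cdkn2c: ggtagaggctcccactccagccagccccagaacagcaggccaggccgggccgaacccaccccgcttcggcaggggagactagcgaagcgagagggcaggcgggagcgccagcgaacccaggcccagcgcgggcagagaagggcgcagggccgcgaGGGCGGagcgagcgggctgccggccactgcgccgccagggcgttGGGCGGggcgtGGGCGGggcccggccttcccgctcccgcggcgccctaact
Cdkn1b: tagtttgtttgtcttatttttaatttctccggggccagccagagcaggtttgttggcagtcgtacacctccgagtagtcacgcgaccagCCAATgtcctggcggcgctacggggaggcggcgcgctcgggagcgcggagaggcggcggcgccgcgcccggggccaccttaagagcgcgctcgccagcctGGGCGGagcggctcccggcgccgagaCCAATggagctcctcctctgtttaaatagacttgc
Ccne1: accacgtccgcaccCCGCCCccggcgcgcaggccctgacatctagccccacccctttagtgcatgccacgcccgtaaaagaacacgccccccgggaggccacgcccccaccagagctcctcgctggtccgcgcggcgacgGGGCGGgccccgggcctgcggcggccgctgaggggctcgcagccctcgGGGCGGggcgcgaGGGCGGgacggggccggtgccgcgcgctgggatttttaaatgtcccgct
Cdk4: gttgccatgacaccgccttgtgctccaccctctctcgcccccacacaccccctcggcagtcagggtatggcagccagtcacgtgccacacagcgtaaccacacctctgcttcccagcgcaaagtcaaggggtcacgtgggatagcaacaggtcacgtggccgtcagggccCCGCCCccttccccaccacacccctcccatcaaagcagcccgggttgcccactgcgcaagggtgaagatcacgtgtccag
E2f3: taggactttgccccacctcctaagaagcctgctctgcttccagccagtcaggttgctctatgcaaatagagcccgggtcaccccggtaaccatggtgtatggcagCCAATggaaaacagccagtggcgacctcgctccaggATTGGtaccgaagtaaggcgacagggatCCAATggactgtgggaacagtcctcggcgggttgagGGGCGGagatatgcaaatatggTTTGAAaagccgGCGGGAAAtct
Rbl2: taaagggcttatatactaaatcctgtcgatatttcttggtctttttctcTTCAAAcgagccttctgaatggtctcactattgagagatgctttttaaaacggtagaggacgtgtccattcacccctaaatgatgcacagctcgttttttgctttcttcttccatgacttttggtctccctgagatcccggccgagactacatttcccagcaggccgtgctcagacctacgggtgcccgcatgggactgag
Cdc25a: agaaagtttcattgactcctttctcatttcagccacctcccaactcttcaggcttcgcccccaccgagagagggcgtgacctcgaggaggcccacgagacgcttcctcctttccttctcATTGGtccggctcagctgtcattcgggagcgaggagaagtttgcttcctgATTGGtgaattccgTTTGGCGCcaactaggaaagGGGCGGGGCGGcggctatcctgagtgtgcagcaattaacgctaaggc
Aurka: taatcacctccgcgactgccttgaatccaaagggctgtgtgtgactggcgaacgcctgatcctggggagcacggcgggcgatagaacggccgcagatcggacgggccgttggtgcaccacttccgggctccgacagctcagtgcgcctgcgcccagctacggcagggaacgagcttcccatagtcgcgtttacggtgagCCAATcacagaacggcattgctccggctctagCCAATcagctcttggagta

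The Cdkn2c stretch (chr4:109666757-109667006, minus strand) holds 3 GC boxes and no other match. Its summits lay between positions -212 and -75 from the start in the 10 libraries that had one. The promoter of Cdkn1b (chr6:134920151-134920400, plus strand) holds 2 CCAAT boxes and 1 GC box, and that of Ccne1 (chr7:38107491-38107740, minus strand) holds 4 GC boxes. Cdk4 (chr10:127063285-127063534, plus strand) has 1 GC box, on the opposite strand. E2f3 (chr13:29986064-29986313, minus strand) carries 3 CCAAT boxes, a GC box, a CHR element and an E2F site, the last of them 4 to 11 bases before the start, and Cdc25a (chr9:109875329-109875578, plus strand) has an E2F site, 2 CCAAT boxes and 2 GC boxes that overlap by 1 base. Rbl2 (chr8:91069807-91070056, plus strand) shows 1 CHR element, and Aurka (chr2:172370571-172370820, minus strand) shows 2 CCAAT boxes. Over whole listed promoters, 250 bases before to 50 after the start, an E2F site was found at 7 of 33 member start sites (21.2%) against 2.26% of the 32851 promoters in the table. A GC box was found at 27 (81.8% against 35.7%), a CCAAT box at 19 (57.6% against 37.4%) and a CHR element at 11 (33.3% against 17.9%). The forkhead letters were found at 1 member start site, of Ccnd3 (3.03% against 3.65%). These matches describe letters in a window and not bound sites.

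Almost every member was open at its gene end or start site at day 3. The measure is the percentile of the best summit within 1 kb of a gene end or listed start site, where each list of a day was first shortened to the N best-scoring summits of its shortest list (53456, 14519 and 4028 at days 3, 5 and 10) and 100 is the best summit. A percentile is a rank among the peaks of its own list, not an amount of opening, and since N differs between days it is not compared across days. At day 3, 35 of 36 members had such a summit in each of the 4 libraries. The exception was Ccne2, which encodes a cyclin of DNA replication onset and whose summit lay 1080 bp inside the gene. At day 5 the number was 32 and 33 in the KO against 29 and 35 in the control, and at day 10 it was 9 and 11 in the KO against 13 and 11 in the control. By gene ends alone, 33 members had one in all 4 day 3 libraries, 26 at day 5 and 6 at day 10. Counted in each library by itself, 33 of 36 members had one at day 3, 27 to 31 at day 5 and 8 to 13 at day 10. Beside these counts by library, 62.6% to 63.4% of all 21631 genes were open by gene ends at day 3. At day 5 it was 44.1% to 47.4% and at day 10 it was 11.2% to 15.9%.

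**Figure D1:**
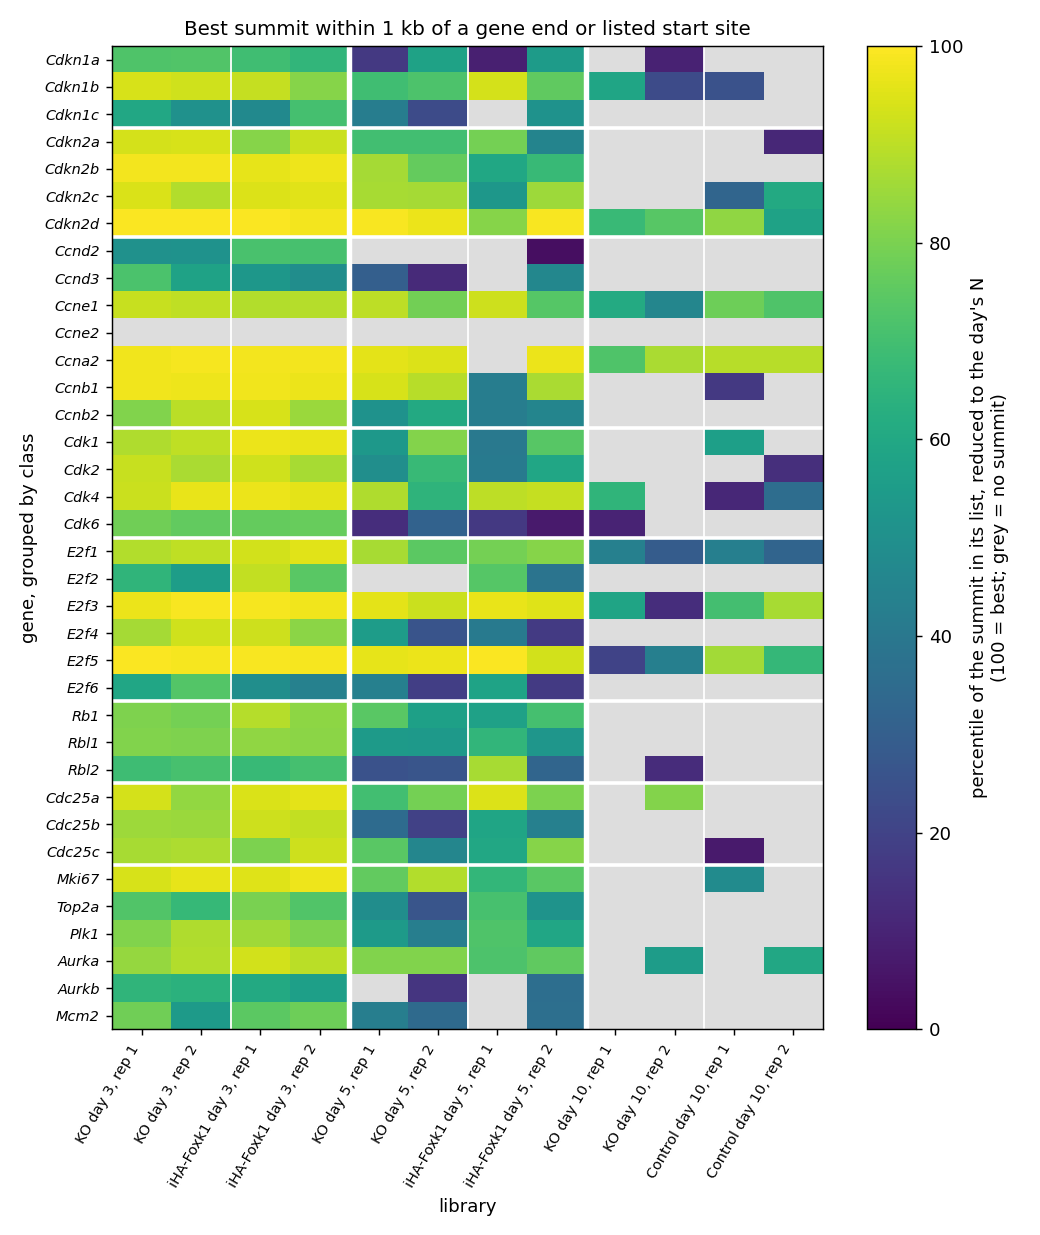
Percentile of the best summit within 1 kb of a gene end or listed start site for 36 genes (rows, grouped by class) in 12 libraries (columns), with grey for no summit in the list shortened to the N of the day. Ccne2 is grey in all libraries, and Cdkn2d, Ccne1, E2f1, E2f3 and E2f5 have a summit in all 12.

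The 3 CIP/KIP inhibitors were open in both genotypes at days 3 and 5, with ranks below the top of the lists for Cdkn1a and Cdkn1c. Cdkn1a (gene 12575, chr17:29090979-29100722), which encodes p21, the inhibitor induced by p53, had percentiles of 72.3 and 72.7 in the KO against 69.3 and 65.8 in the control at day 3. At day 5 they were 16.6 and 57.8 in the KO against 8.68 and 55 in the control, and at day 10 the only summit stood at 9.66 in KO replicate 2. Its KO and control values did not overlap at day 3 and overlapped at day 5. These values come from the listed start inside the gene, since no Cdkn1a summit of the shortened lists lay within 1 kb of a gene end. A further Cdkn1a region in the gene body, at chr17:29095512-29095539 and 1756 bp from a listed start, was found in the KO alone at day 3. Its percentiles were 43.3 and 3.23, and no control list held a summit within 1 kb at any score.

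Cdkn1b (gene 12576, chr6:134920401-134925525) encodes p27, which holds cells in the first gap phase. Its gene-end percentiles were 93.9 and 92.9 in the KO against 91.1 and 81.9 in the control at day 3, and 69.3 and 72.0 in the KO against 93.4 and 75.6 in the control at day 5. The KO values were thus above both control values at day 3 and below both at day 5. At day 10 they were 58.7 and 22.9 in the KO and 25.0 in Control replicate 1, with no summit in replicate 2 among the best 4028. A region 3656 bp away from the gene, chr6:134916719-134916771, was found in the control alone at day 3, at percentiles of 73.5 and 57.7. No KO list held a summit within 1 kb of it. Cdkn1c, which encodes p57 and is imprinted, had 60 and 50.7 in the KO against 47.4 and 70.5 in the control at day 3. At day 5 the values were 42.5 and 22.9 in the KO and 50.9 in control replicate 2, with none in replicate 1, and no shortened list of day 10 held a summit there.

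Among the INK4 inhibitors Cdkn2d ranked highest and was open in all 12 libraries. Cdkn2d encodes p19INK4d, and its percentiles were 99.5 and 99.4 in the KO against 99.3 and 98.4 in the control at day 3. They were 98.9 and 97.1 against 81.7 and 99 at day 5, and 67.6 and 74.2 against 83.5 and 57.8 at day 10. The KO values of day 3 were above those of the control, at the nearest by a fraction of a point, and the genotypes overlapped at days 5 and 10. In 11 of 12 libraries this summit lay at the upper end of the gene, by its start. The value of 81.7 in iHA-Foxk1 day 5 replicate 1 comes from the other end, which lies 490 bp from an end of the neighbouring gene Kri1, and so from a different site.

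Cdkn2c (gene 12580, chr4:109660876-109666756) encodes p18INK4c, and its gene end was the only one of a member to be called at any day. At day 10 the region chr4:109666831-109666834, 76 bp from the gene, held a summit at percentiles of 32.7 and 60.9 in the Control libraries and none in the KO. The full KO lists of 4028 and 4755 summits held none within 1 kb either. The same promoter was open in all libraries of the earlier days, with 94.5 and 88.3 in the KO against 94.6 and 95.6 in the control at day 3. At day 5 the percentiles were 87.0 and 86.4 in the KO against 52.7 and 85.4 in the control. The KO values lay below both control values at day 3 and above both at day 5. Among the reproducible gene-end regions of all genes, 342 of 2284 (15.0%) were control-only at day 10 and 2.89% KO-only. The call at Cdkn2c is thus 1 of many in that direction.

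Cdkn2a and Cdkn2b lie side by side on chromosome 4. Cdkn2a encodes p16INK4a and, from another start and reading frame, p19ARF, and its best day 3 summit lay at the downstream listed start in 3 libraries and at the upstream one in KO replicate 2. The best percentiles of Cdkn2a were 93.5 and 93.9 in the KO against 81.9 and 92.1 in the control at day 3, then 69.7 and 69.7 against 79.0 and 45.2 at day 5. At day 10 the only summit stood at 11 in Control replicate 2. Cdkn2b encodes p15INK4b, which is induced by TGF-β. Its percentiles were 98.1 and 98.2 in the KO against 96.2 and 97.6 in the control at day 3, and 86.7 and 76.3 against 59.6 and 67.3 at day 5. Cdkn2b was the only member above both control values in both KO libraries at both days, while 5.78% of the 10456 genes tested at both days did the same. The shortened lists of day 10 held no summit at Cdkn2b, and the full Control lists held one each.

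Cyclins spanned the whole range of ranks. Ccna2, the cyclin of replication and entry into mitosis, had the highest median of the class over days 3 and 5, 97.3, and Ccne2 the lowest, since no summit lay within 1 kb of its ends. Ccna2 was open in 11 of 12 libraries, iHA-Foxk1 day 5 replicate 1 being the exception. These summits lay at the end of Ccna2 that is 104 bp from an end of Bbs7, so they cannot be given to one of these genes. Ccne1, the cyclin that starts replication with Cdk2, was open in all 12 libraries, and Ccnb1, Ccnb2 and Ccnd3 in 9, 8 and 7.

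Ccnd2 (gene 12444, chr6:127125162-127152188) encodes cyclin D2, which carries growth signals to Cdk4 and Cdk6, and it had the smallest adjusted p of the members at day 3. Its gene-end percentiles were 50.4 and 50.9 in the KO against 71.3 and 71.1 in the control at day 3. The replicates of each genotype lay within 1 point of each other, and the KO was lower without overlap. By limma over 13879 genes the difference was -20.6 points with an adjusted p of 0.0858, which misses the 0.05 threshold. At day 5 the only value within the shortened lists of 14519 was 3.55 in control replicate 2. The full KO lists of 48391 and 42129 summits also held one each, at 66.6 and 50.6 of those longer lists. These full-list percentiles are on another scale than 3.55 and do not place the KO above the control. A region 63396 bp from Ccnd2, at chr6:127215564-127215604, was control-only at day 3 with percentiles of 54.3 and 52.6, and no KO summit lay within 1 kb of it.

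Of the kinases, Cdk4 had the highest median, 91.6, and Cdk6 the lowest, 53.6. Cdk1, the kinase of mitosis, had 88.1 and 90.4 in the KO against 97.2 and 96.7 in the control at day 3, which do not overlap. At day 5 its values overlapped, at 53.3 and 81.5 against 40.5 and 74.1. Cdk2, the partner of cyclins E and A, overlapped between genotypes at both days. Cdk4, the partner of D-type cyclins, had 88.0 and 65.1 in the KO against 90.0 and 91.2 in the control at day 5.

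Cdk6 (gene 12571, chr5:3341004-3531008) partners D-type cyclins early in the cycle, and it is a long gene that held more summits than any other member at day 3, with 10 and 12 in the KO against 9 and 11 in the control. It accounted for 20 of the 120 member regions of day 3 and for 4 of the 12 regions called between genotypes over the days. At its listed start the percentiles were 78.5 and 75.8 in the KO against 76.3 and 76.8 in the control at day 3, and the genotypes overlapped. At day 5 they were 13.1 and 31.5 in the KO against 16.5 and 7.24 in the control. Of the called regions, chr5:3293922-3293926, 47080 bp from the gene, was KO-only at day 3 with percentiles of 15.0 and 19.7. In the other direction, chr5:3486805-3486884 in the gene body was control-only at day 3 at 59.8 and 30.5. The called regions of Cdk6 thus went both ways on the same day. At day 5 chr5:3343627-3343856, 152 bp from the listed start, was control-only, but both KO lists held a summit within 1 kb of it. At day 10 chr5:3436068-3436170 in the gene body was KO-only at 32.5 and 19.1, and it lay 94889 bp from the nearer gene end. With a limit of 50 kb it was not assigned to Cdk6.

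E2f factors bind the promoters of replication genes, E2f1 to E2f3 mainly as activators and E2f4 to E2f6 mainly as repressors. E2f5 had the highest median, 98.8, and E2f6 the lowest, 46.6. E2f5 and E2f3 were among the 3 members, with Cdkn2d, that stayed within the best 4028 summits of all 12 libraries.

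E2f3 (gene 13557, chr13:29906575-29986064) had gene-end percentiles of 97.2 and 98.8 in the KO against 98.5 and 98.0 in the control at day 3. They were 95.8 and 91.9 against 96.7 and 95 at day 5, and 58.2 and 13.2 against 70.3 and 87.0 at day 10. The genotypes overlapped at days 3 and 5, and both KO values were below both Control values at day 10. A region 6034 bp from E2f3, chr13:29992050-29992146, was control-only at day 3 at 12.8 and 36.1.

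E2f2 (gene 242705, chr4:136172274-136196057) was the only member with a summit in each control library and in no KO library of the shortened day 5 lists. Its best percentiles were 65.3 and 55.8 in the KO against 90.8 and 74.4 in the control at day 3. At day 5 no KO summit was among the best 14519, while the control stood at 73.5 and 38.5. The control-only region of day 5, chr4:136180468-136180597, lay 250 bp from a listed start inside E2f2. In the full lists both KO libraries held a summit within 1 kb of a gene end or start of E2f2, so the site was ranked lower in the KO and not missing from its lists. It stood there at 60.7 and 48.2, percentiles of longer lists that are not on the scale of the control values above. E2f2 KO values lay below the control at both days, and over days the gene-end difference was -9.48 points, with p = 0.167 and adjusted p = 0.828 by the exact permutation test.

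E2f6 (gene 50496, chr12:16810909-16826752) had 59.2 and 73.3 in the KO against 49.3 and 44.0 in the control at day 3, a difference of 19.6 points without overlap (limma, adjusted p = 0.366). At day 5 the values overlapped, at 43.5 and 18.6 against 58.1 and 16.9. A region 29407 bp from E2f6, chr12:16856097-16856221, was KO-only at day 3 at 59.9 and 45.0, and no control list held a summit within 1 kb. E2f1 was open in all 12 libraries, with 88.7 and 90.4 in the KO against 93.1 and 95.4 in the control at day 3. The values of E2f4 overlapped at both days, and its best summit lay at 1 end of the gene in 3 libraries and at the other, 91 bp from an end of Elmo3, in 5.

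The pocket proteins had medians of 76.7 for Rb1, the highest, and 68.2 for Rbl2, the lowest. Rb1, the retinoblastoma protein, had 80.7 and 79.1 in the KO against 89.0 and 83.1 in the control at day 3. Of the Cdc25 phosphatases, which activate the kinases by removing inhibitory phosphates, Cdc25a had the highest median, 88.7, and Cdc25b the lowest, 71.9. Cdc25b had 85.2 and 85.0 in the KO against 92.5 and 90.6 in the control at day 3, and 35.1 and 19.4 against 58.8 and 43.6 at day 5. Both KO values of Cdc25b were below both control values at each of these days, and the same held for Cdc25a and for Top2a, the topoisomerase that untangles chromosomes. At day 3 Top2a had 73.0 and 67.0 in the KO against 79.8 and 73.0 in the control, which all but touch. At day 5 Top2a had 49.1 and 26.5 in the KO against 70.7 and 51.2 in the control. Of the 10456 genes tested at both days, 3.79% were below the control at both, against these 3 of 30 members. None of the 3 passed the exact permutation test over days, which its few arrangements put out of reach of any gene alone. The adjusted p of this permutation test was 0.828 for Cdc25b and Top2a and 1 for Cdc25a. The Cdc25a difference over days was 7.1 points because of a summit at 81.4 in KO day 10 replicate 2.

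Mki67 (gene 17345, chr7:135689784-135716450) encodes the proliferation marker Ki-67 and had the highest median of the mitosis and replication genes, 91.2, and Aurkb the lowest, 46.5. Mki67 had 93.8 and 96.2 in the KO against 95 and 97.4 in the control at day 3. At day 5 it had 76.0 and 88.5 in the KO against 66.0 and 74.4 in the control. The genotypes overlapped at day 3, and the KO was higher without overlap at day 5. The region 5472 bp from Mki67, chr7:135721860-135721984, was control-only at day 5 at 44.9 and 18.3, and 1 full KO list held a summit there. Aurka was open in 10 of 12 libraries, in each at the end that lies 241 bp from an end of Cstf1, and no summit was assigned to Aurka by the 100 kb rule.

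**Figure D2:**
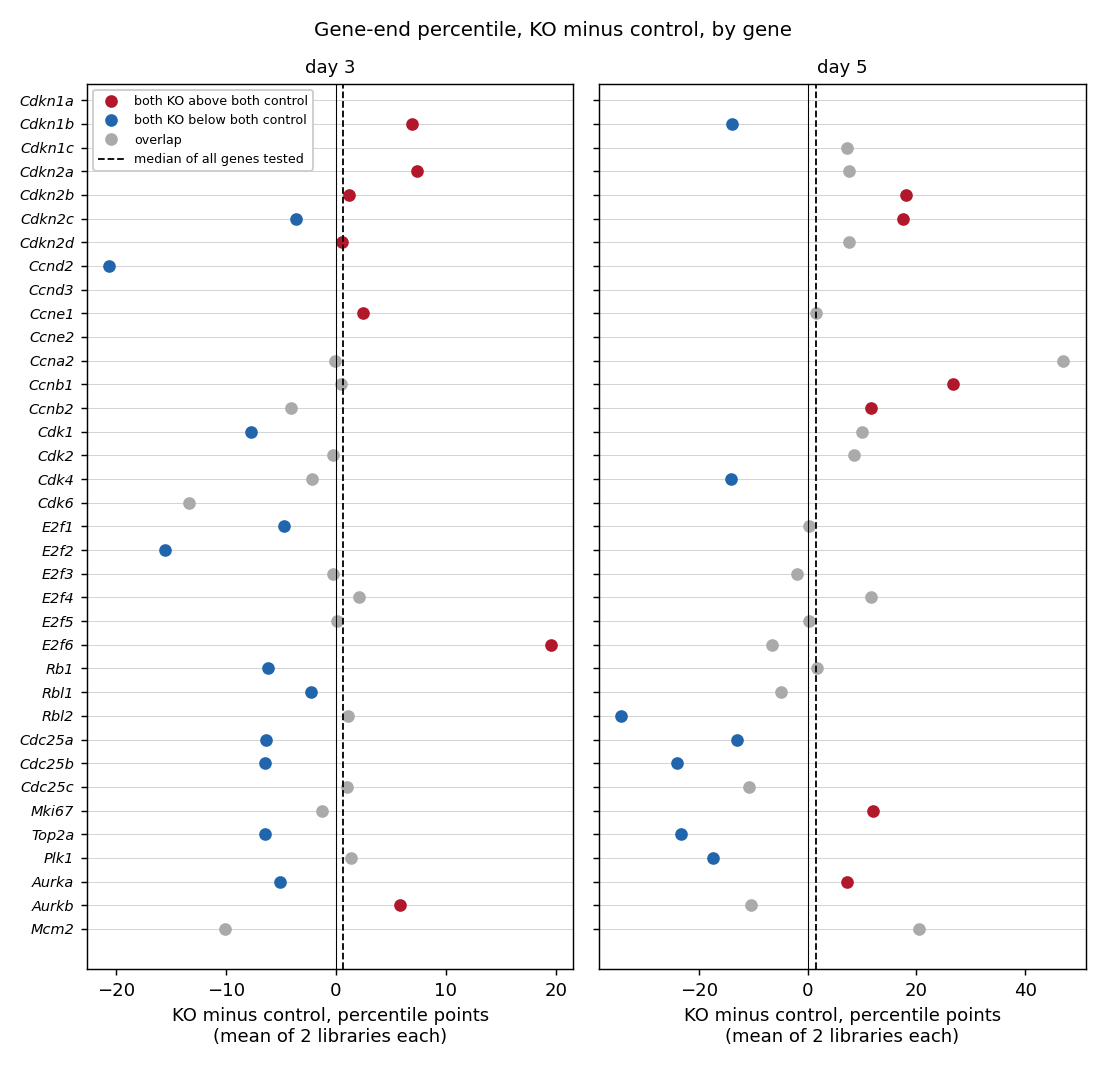
Mean gene-end percentile of the 2 KO libraries minus that of the 2 control libraries (x axis, percentile points) for each member tested (y axis) at day 3 and day 5, with colour for values that do not overlap and a dashed line for the median of all genes tested. Ccnd2 at -20.6 and E2f6 at 19.6 are the outermost members of day 3, and Cdc25a, Cdc25b and Top2a are below 0 without overlap at both days.

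By gene ends alone, more members lay below than above the control at days 3 and 10, and about as many at day 5. A list without a summit at a gene end counted as percentile 0 here. Members not tested for want of gene-end summits were Cdkn1a, Ccnd3 and Ccne2 at day 3, and Ccnd2, Cdk6 and E2f2 besides at day 5. At day 3, 7 of 33 members were above the control without overlap (21.2% against 26.5% of 13879 genes) and 11 below (33.3% against 17.5%). At day 5, 6 of 30 were above (20% against 20.6% of 10481 genes) and 7 below (23.3% against 17%). At day 10, 0 of 10 were above (background 7.64% of 3298 genes) and 5 below (50% against 33.5%). By class, the inhibitors at day 3 had 4 above and 1 below of 6 tested, the cyclins, kinases and E2f factors 2 above and 4 below of 15, and the other members 1 above and 6 below of 12. Medians of KO minus control at day 3 were 0.922 for the inhibitors, -0.286 for the cyclins, kinases and E2f factors and -3.67 for the other members, beside 0.639 for all genes. At day 5 they were 7.61, 4.99 and -10.6 beside 1.52. With full lists the day 5 counts were 13 above and 0 below of 32 members (40.6% and 0%), beside 57.9% and 1.66% of 13215 genes, so the order at day 5 moved with list length for genes in general. Of the members tested at both days, 1 was above at day 3 and below at day 5, Cdkn1b (3.31% of all genes), and 2 went the other way, Aurka and Cdkn2c (3.24%).

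No member passed a test of the gene-end percentile. The exact two-sided permutation of genotype within days (216 arrangements, smallest possible p 0.00926) gave an adjusted p below 0.05 for 0 of 13950 genes (0%), 200 genes were below 0.05 before adjustment (1.43%), and 0 of 33 members were. The smallest member value was 0.0556, for Cdc25b (-10.1 points), Top2a (-9.87 points) and Cdkn2b (6.43 points). The median difference of the members was -1.96 points, with 13 above 0 and 20 below, beside a median of 0.206 for all genes. For the number of summits per gene, 0 of 17813 genes passed after adjustment (0%) and 43 before it (0.241%), with 0 of 35 members. With a smallest possible p of 0.00926, a gene could pass after adjustment only if a great many genes reached that p together. The 0 counts after adjustment by permutation thus cannot show that the genotypes are alike. By limma with day as a covariate, 0 genes passed for the percentile and 1, no member, for the number of summits. Within day 3, limma called 73 of 13879 genes (0.526%), 42 higher and 31 lower in the KO, and 0 of 33 members. Before adjustment 1844 genes (13.3%) and 4 members were below 0.05: Ccnd2, Cdk1, Cdc25b and E2f6. All 73 calls were lost when any 1 of the 4 libraries was left out. At day 5 limma called 0 of 10481 genes (0%), and 564 genes (5.38%) and 0 of 30 members were below 0.05 before adjustment.

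In the shortened lists the share of summits near inhibitors overlapped between genotypes on every day. Per 10000 summits of the shortened lists, 4.58 ± 0.132 (SD, n = 2) lay near inhibitors in the KO against 4.49 ± 0.265 in the control at day 3. The values were 7.58 ± 0 and 7.23 ± 0.487 at day 5, and 7.45 ± 0 and 7.45 ± 0 at day 10. Cyclins, kinases and E2f factors took 8.98 ± 0.529 in the KO against 8.70 ± 0.132 in the control at day 3 and 22.3 ± 7.02 and 22.3 ± 0 at day 10. At day 5 they took 14.8 ± 0.487 in the KO against 16.2 ± 0.487 in the control, the only day on which the libraries did not overlap at the N of the day. With every list shortened to 4028, it was day 3 that did not overlap, at 16.1 ± 1.76 in the KO against 24.8 ± 3.51 in the control, and day 5 did, at 22.3 ± 0 against 24.8 ± 3.51. The day 5 difference of -1.38 became 0 with lists shortened to N divided by 2. No test was made of these shares, since the members were chosen with results known. At day 10 CIP/KIP inhibitors had 4.97 ± 0 in the KO against 1.24 ± 1.76 in the control and INK4 inhibitors 2.48 ± 0 and 6.21 ± 1.76, where 1 summit is worth 2.48. With full lists, whose lengths differ between genotypes, the inhibitor share was lower in the KO without overlap on each day, at 4.45 ± 0.059 against 4.65 ± 0.0383 at day 3, 4.54 ± 0.288 against 5.94 ± 1.34 at day 5 and 6.88 ± 0.805 against 8.77 ± 0.342 at day 10 (SD, n = 2).

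**Figure D3:**
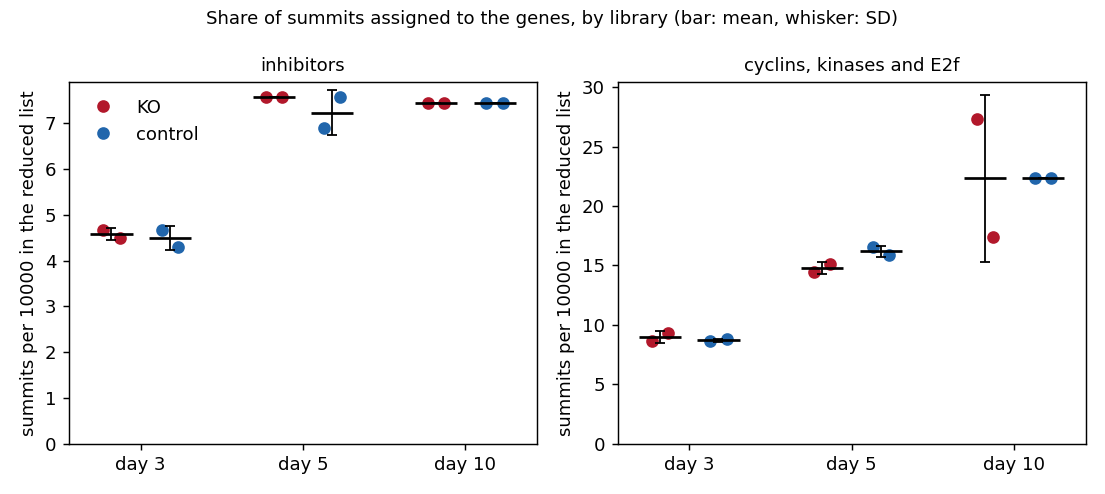
Summits per 10000 of the list shortened to the N of the day (y axis, starting at 0) near the 7 inhibitors and near the 17 cyclins, kinases and E2f factors at each day, with 1 point per library, a bar for the mean and whiskers for the SD of 2 libraries. The points of the genotypes overlap except for cyclins, kinases and E2f factors at day 5.

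Regions, formed by merging summits of the compared lists within 250 bp, were mostly shared by the genotypes near the members. At day 3, 85 of 120 member regions were reproducible, that is, found in both libraries of at least 1 genotype. Of the reproducible ones, 65 (76.5%) were found in all 4 libraries, beside 62% of all reproducible regions. Of these 85, 3 were KO-only (3.53%, background 9.77% of 52273) and 4 control-only (4.71%, background 9.57%). Without any 1 library, when a call needs only 1 library of that genotype, the counts were 9 to 13 and 7 to 12. At day 5, 0 of 43 were KO-only (background 12.1% of 14273) and 3 control-only (6.98%, background 7.97%), and 32 were found in all 4. With full lists the day 5 counts were 12 KO-only and 1 control-only. Without iHA-Foxk1 day 5 replicate 1, the lists were cut to 34040 summits instead of 14519, and the counts were 6 and 16. Without replicate 2 the length stayed at 14519, and the counts were 6 and 10. At day 10, 1 of 11 was KO-only (9.09%, background 9.88% of 3634) and 1 control-only (9.09%, background 11.8%), and without 1 library these counts were 1 to 4 and 1 to 5.

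Regions within 1 kb of a gene end were also counted apart from those elsewhere, where listed starts further inside a gene count as elsewhere. All 34 reproducible gene-end regions of members were found in all 4 libraries at day 3, beside 86% of those of all genes. None of the 29 reproducible ones at day 5 was called, beside 2.36% KO-only and 2.15% control-only for all genes. Gene-end regions make up 34 of the 85 reproducible member regions and 13068 of all 52273, and they are seldom called for any gene (2.75% KO-only and 2.27% control-only at day 3). Away from gene ends 3 of 51 reproducible member regions were KO-only (5.88%) and 4 control-only (7.84%) at day 3. For all genes these shares were 12.1% and 12%. At day 5, 0 of 14 were KO-only (beside 27.7% for all genes) and 3 control-only (21.4%, beside 17.3%). Of these 3, 2 lay within 1 kb of a listed start inside the gene, at E2f2 and Cdk6. Split by role, 1 of 26 reproducible inhibitor regions was called each way at day 3, by the KO at Cdkn1a and by the control at Cdkn1b. Near cyclins, kinases and E2f factors 2 and 3 of 43 were called. No region near a pocket protein or a Cdc25 phosphatase was called between genotypes at any day, but few were open to a call. Pocket proteins held 5 reproducible regions on day 3, then 3 (day 5) and 0 (day 10). Cdc25 phosphatases held 5, 4 and 0 in the same order. So few regions cannot tell whether these classes differ from other genes.

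**Figure D4:**
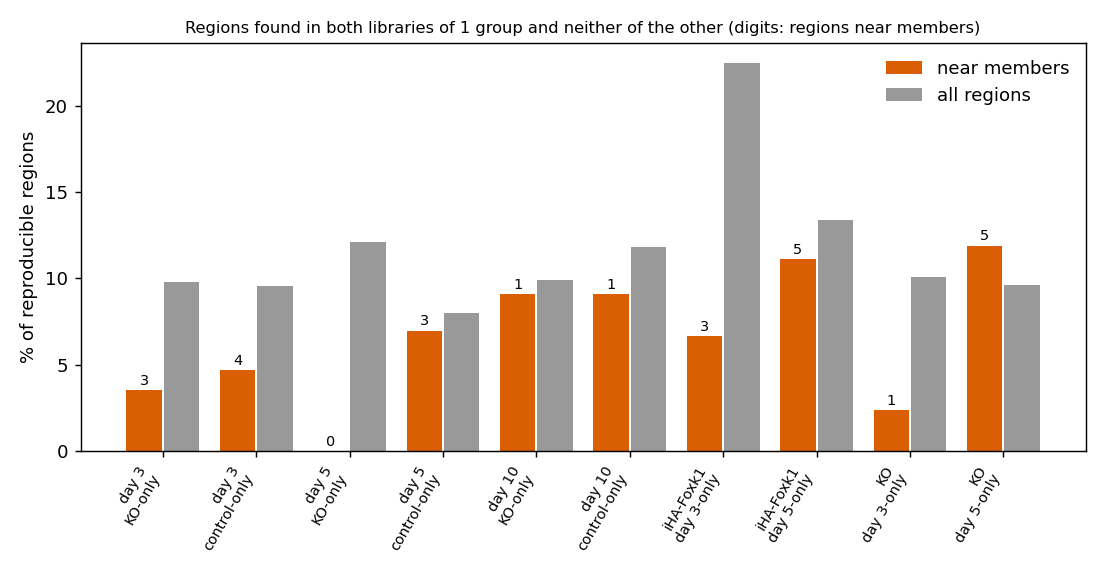
Share of reproducible regions (y axis, percent) found in both libraries of 1 group and neither of the other, for regions near members (orange, with the number of regions) and for all regions (grey), in 5 comparisons. The member bars are below the grey ones in 9 of 10 pairs, the exception being KO day 5-only regions.

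Comparing days within a genotype, most reproducible member regions were again found in all 4 libraries (32 of 45 in iHA-Foxk1 and 31 of 42 in the KO). At gene ends the share was 82.1% for members beside 63.5% for all genes in iHA-Foxk1, and 78.6% beside 73.8% in the KO. Elsewhere it was 52.9% beside 22.6% in iHA-Foxk1, and 64.3% beside 47.5% in the KO. In iHA-Foxk1, 3 of 45 reproducible regions near members were day 3-only (6.67%, background 22.5% of 15158) and 5 day 5-only (11.1%, background 13.4%). In the KO, 1 of 42 was day 3-only (2.38%, background 10.1% of 15445) and 5 day 5-only (11.9%, background 9.63%). Without 1 library these counts were 4 to 12 and 5 to 20 in iHA-Foxk1, and 1 to 2 and 6 to 8 in the KO. The highest came without iHA-Foxk1 day 5 replicate 1, when the lists were cut to 34040 summits instead of 14519. Promoters of Cdkn1a and Rbl2 were day 5-only in both genotypes, with every list cut to 14519 summits. The Cdkn1a start stood at 8.68 and 55 in iHA-Foxk1 and at 16.6 and 57.8 in the KO at day 5. Of the best 53456 summits at day 3 it stood at 69.3 and 65.8 in iHA-Foxk1 and at 72.3 and 72.7 in the KO. It was thus open at day 3 in all 4 libraries but outside their best 14519, and the call depends on that cut. The Rbl2 promoter was likewise present in all full day 3 lists. The Rbl2 promoter stood at 87.1 and 32.7 in iHA-Foxk1 and 25.1 and 26.3 in the KO at day 5. Day 5-only regions at E2f6, in iHA-Foxk1, and at Cdkn1c and E2f4, in the KO, were likewise at gene ends with a summit in both full day 3 lists, so these sites were ranked differently and not missing at day 3. At the Cdk6 start of iHA-Foxk1, a region 622 bp away was day 3-only and one 152 bp away day 5-only. The third day 3-only region of iHA-Foxk1 lay 20223 bp from Cdkn2a. The Cdk6 region chr5:3320400-3320410, 20599 bp from the gene, was day 3-only in iHA-Foxk1, at 43.5 and 52.5, and an overlapping one was day 3-only in the KO, at 8.12 and 1.54.

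Another 51 genes of the cell cycle pathway, among them the Mcm helicase, the MuvB subunits (Lin genes) and further E2f factors, had 15 of 49 above the control at day 3 (30.6% against 26.5% of all genes) and 5 below (10.2% against 17.5%), and whether they differ from the members in this was not tested. Of 49 tested for gene-end percentile, 0 were below 0.05 before adjustment, with a median of -0.33. Of 45 tested for summit number, 1 was, Lin52, a MuvB subunit (exact permutation p = 0.0278, adjusted p = 1). At day 3, 7 of their 95 reproducible regions were KO-only (7.37% against 9.77% of all reproducible regions) and 3 control-only (3.16% against 9.57%). At day 5, 1 of 49 was KO-only (2.04% against 12.1%) and 3 control-only (6.12% against 7.97%). At day 10, 0 of 23 was KO-only (against 9.88%) and 1 control-only (4.35% against 11.8%), near Cdc6, a loader of the replication helicase.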

How the data were processed

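Reads were aligned with Bowtie2 2.2.4 and peaks called with MACS2 on mm10, per the submitters' processing notes, and the MACS2 version is not given there. Each summit comes with a deposited −log10 p-value or q-value (which of them is not stated), and this score was used only to rank summits within a list. Each library has its own list. Summits on chromosomes 1 to 19 and X were kept, and no list of artefact regions was applied. Lists were shortened to the shortest of a comparison, summits merged at 250 bp, and genes taken from RefSeq (GRCm38.p6). Genes entered the test over days with a summit in at least 2 libraries, and 12 libraries entered it. Scripts used Python 3.11.15, R 4.3.3 and limma 3.58.1, with two-sided tests, Benjamini-Hochberg adjustment over all genes tested, and a check on simulated data. Described one by one were the inhibitors and members with a region called between genotypes. Others were given through the highest and lowest median of their class, and a few more were chosen after their values were seen. Listed start sites and counts without overlap, with full lists too, were added after seeing the data. Members and lists were chosen with earlier results of these data known.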

Additional observations from a re-analysis of the deposited data

Results flagged for a closer look

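The genotype difference in percentile at gene ends or start sites had opposite signs on a pair of days, without overlap on either, for 4 members. The difference between the days was not tested, and since percentiles of each day rank against lists of another length, only the signs are set side by side. Such opposite orders were found at 3 of 30 members tested at gene ends at days 3 and 5 (10%, beside 6.55% of 10456 genes), at 1 of 10 at days 3 and 10 (10%, beside 10.4% of 3281 genes) and at 1 of 10 at days 5 and 10 (10%, beside 8.8% of 3272 genes). For Cdkn1b the KO minus control difference was 6.92 points at day 3 and -13.9 at day 5. For Cdkn2c it was -3.63 at day 3, 17.6 at day 5 and -46.8 at day 10. Ccne1 had 2.44 at day 3 and -21.7 at day 10, and Aurka had -5.12 at day 3 and 7.28 at day 5. The Aurka values come from the end 241 bp from an end of Cstf1, so they cannot be given to one of these genes. At day 5 control replicate 1, the shortest list, had 52.7 at Cdkn2c beside 85.4 in replicate 2.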

How the results depend on the processing

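Of 172 alternatives over 27 results, 106 left the value within 1.5 times or 1 SD of the reported one and 66 moved it. Changes of sign were not counted apart, and some values changed sign. The difference near inhibitors went from 0.0935 to -0.2 at day 3 and from 0.344 to -1.4 at day 5 with all summits. Near cyclins, kinases and E2f factors it went from 0.281 to -0.561 at day 3 with N divided by 2. With all summits, day 5 gave 12 KO-only and 1 control-only regions near members and day 10 gave 8 control-only. KO minus control per 10000 was then -0.2, -1.4 and -1.9 near inhibitors at days 3, 5 and 10, and -4.31 and 4.99 near cyclins, kinases and E2f factors at days 5 and 10. Members above and below the control at day 5 became 13 and 0 of 32, beside 57.9% and 1.66% of all genes. With N divided by 2, control-only regions numbered 2 at day 3, KO-only and control-only regions 1 and 1 at day 5, and KO-only regions 0 at day 10. Day 3-only and day 5-only regions were then 0 and 2 in each genotype. Per 10000 the difference was 2.48 near inhibitors at day 10, and -0.561, 0 and -12.4 near cyclins, kinases and E2f factors at days 3, 5 and 10. Merging at 100 bp gave 5 KO-only regions at day 3, 0 control-only at day 5, 3 control-only at day 10, 3 day 5-only in iHA-Foxk1 and 2 day 3-only in the KO. Absence judged on full lists left 1 control-only region at day 5, and a 50 kb limit left 0 KO-only at day 10.

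Leaving out 1 library gave 9 to 13 KO-only and 7 to 12 control-only regions at day 3, 1 to 6 and 3 to 16 at day 5, and 1 to 4 and 1 to 5 at day 10, where a region then needs 1 library of the reduced arm. Day 3-only and day 5-only regions were 4 to 12 and 5 to 20 in iHA-Foxk1, and 1 to 2 and 6 to 8 in the KO. Per 10000 the differences near inhibitors were -0.0935 to 0.281, 0 to 0.689 and -3.15 to 0 at days 3, 5 and 10, and near cyclins, kinases and E2f factors -0.0935 to 0.655, -1.72 to -1.03 and -5.26 to 4.97. Without iHA-Foxk1 day 5 replicate 1, the day 5 counts were 6 (KO-only) and 16 (control-only), and without replicate 2 they were 6 and 10. Lists were cut each time to the shortest one left, which was 34040 summits without replicate 1 and 14519 without replicate 2. The 73 genes called by limma at day 3 became 0 without any 1 library, where the lone library is assumed to vary like the other group, and day 5 stayed at 0. Over days, limma called 1 gene for summit number.

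Same-numbered libraries of the genotypes did not deviate together in gene-end percentile (correlations of -0.0206, -0.0374 and -0.0257 at days 3, 5 and 10). Whether they share a culture or batch is not given in the labels, and ranks within lists cannot show it. With the replicate block, the permutation tests and limma at days 3 and 5 called 0 genes. The smallest possible p of the permutation was then 0.0312, which put passing after adjustment out of reach of any gene alone.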
